A study of Mus musculus with 14 samples.

Results

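The Gata4 and Gata6 loci were compared between mouse embryonic stem cells (ESCs) and cells from separate retinoic acid and extraembryonic endoderm protocols. The Gata4 locus was taken as chr14:63800001-63900000 and the Gata6 locus as chr18:11020001-11110000 of build mm9, windows of 100.0 and 90.0 kb whose ends were set by position. The loci were picked with earlier results of these data known, so their ranks among peaks of the genome are a description. They hold 500 and 450 bins of 200 bp, together 950 of the 13194690 bins up to the last listed base of each chromosome, and every peak overlapping them was included. No annotation of mm9 was used here, so positions are given without exons, introns or start sites, and each window is called by the name of its gene.

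GATA4 and GATA6 are zinc-finger transcription factors that bind the GATA motif. GATA6 directs cells of the early embryo to primitive endoderm, the source of the extraembryonic endoderm that XEN cells represent, and GATA4 acts with it and is a standard marker of that lineage. Both genes are silent or nearly so in naive ESCs and are switched on by retinoic acid. H3K4me1 lies at enhancers whether they are primed or active, H3K27ac marks active enhancers and promoters, and methylation of CpG cytosines (5mC) is usually low where regulatory DNA is active.

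In ChIP-BS-seq, chromatin carrying a histone mark is first enriched by immunoprecipitation, and its DNA is then bisulfite-converted and sequenced, which yields 5mC for the marked DNA alone. The male mouse ESC line R1 was kept for 2 days with LIF and without the inhibitors called 2i (ESC), treated for 4 days with 1 µM retinoic acid (RA), or directed for 9 days with 0.1 µM retinoic acid and 10 ng/mL Activin A (XEN). There was 1 library per mark in ESC and in RA, where the RA treatment yields a mixture of cell states, whereas each mark in XEN had 2 libraries, numbered as replicates. All come from this single line, and whether the ESC and RA files pool repeats is not known, so differences between ESC and RA have no replicate error. Library depth was 32299340 to 58791727 CpG counts in ESC and RA and 12143514 to 31342331 in XEN, and across the genome 5mC was 38.6% and 54.8% on H3K4me1 and 33.0% and 38.7% on H3K27ac in ESC and RA. Occupancy is given as CPM, the CpG counts of a region scaled to a library total of 1000000, and 5mC as methylated over all CpG counts. The 95% intervals, exact for CPM (Poisson) and 5mC (Clopper-Pearson), cover counting error only, and CpGs of the same read are not independent. In such bulk libraries, fewer cells carrying a mark cannot be told apart from less of the mark per cell.

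For XEN, the sample labels assign the H3K4me1 and H3K27ac libraries in one way and the file names in the reverse way. Over 262524 tiles of 2 kb, the libraries labelled H3K4me1 correlated with RA H3K27ac at Pearson's r of 0.716 and 0.737 and with RA H3K4me1 at 0.384 and 0.399 (log2 CPM, a description across tiles that share library depth and base composition). For the libraries labelled H3K27ac, r was 0.783 and 0.805 with RA H3K4me1 and 0.550 and 0.557 with RA H3K27ac. Over the 95 tiles of the windows the order was the same, at 0.915 and 0.905 against 0.772 and 0.804 for the former pair and 0.929 and 0.947 against 0.726 and 0.730 for the latter. The data thus go against the labels of all 4 XEN libraries. The labels were followed, each XEN library is referred to by its label, and results that need the mark are also given with the marks as in the file names, a setting chosen after seeing the data.

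Both windows carried several times more H3K27ac after retinoic acid than in ESCs. On H3K27ac the Gata4 window held 2162 counts in ESC and 16614 in RA, or 66.4 CPM (95% interval 63.6 to 69.2) and 514 CPM (507 to 522). The Gata6 window held 1286 and 9351 counts, or 39.5 and 289.5 CPM. The RA level was 7.75 times the ESC level at Gata4 (interval 7.41 to 8.11) and 7.33 times at Gata6 (6.92 to 7.78).

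H3K4me1 was also higher, but less so. The Gata4 window held 6390 counts in ESC and 17022 in RA, or 109 and 361 CPM, a ratio of 3.32 (3.23 to 3.42). The Gata6 window held 4212 and 8687 counts, or 71.6 and 184 CPM, a ratio of 2.57 (2.48 to 2.67). H3K27ac was the lower of the marks in ESC, at 0.611 and 0.551 times the CPM of H3K4me1 at Gata4 and Gata6, and the higher in RA, at 1.43 and 1.57 times.

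Set against the whole genome, the H3K27ac difference stood far out and the H3K4me1 difference did not. Of 22093 tiles of 100 kb, 5.54% were at least 2-fold higher on H3K27ac in RA than in ESC, and only 6 (0.0272%) had a larger ratio than the Gata4 window and 9 (0.0407%) a larger ratio than the Gata6 window. For H3K4me1, 24.6% of 22160 tiles were at least 2-fold higher, and 2244 (10.1%) and 3646 (16.5%) exceeded the Gata4 and Gata6 windows. The median ratio over all tiles was 1.15 for H3K4me1 and 0.943 for H3K27ac. With 1 library per mark and cell state these are descriptions without a test.

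**Figure D1:**
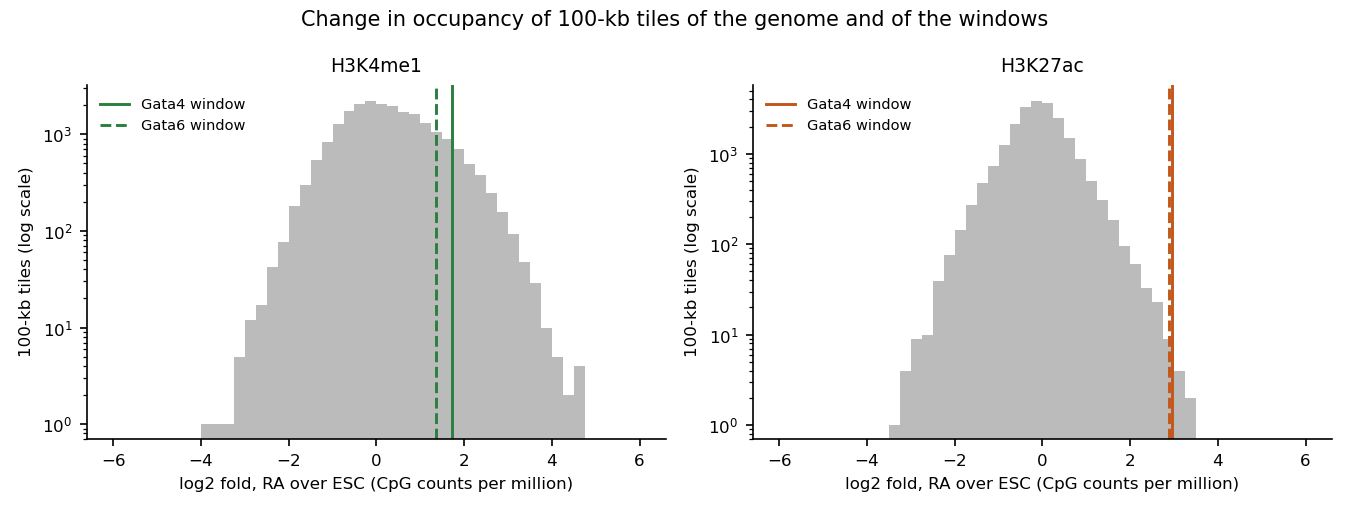
Number of 100-kb tiles of the genome (log scale) by the log2 ratio of RA over ESC CPM, for H3K4me1 (left) and H3K27ac (right), with the Gata4 (solid) and Gata6 (dashed) windows as vertical lines. On H3K27ac both windows, at log2 ratios of 2.95 and 2.87, sit at the far right edge of the distribution, while on H3K4me1, at 1.73 and 1.36, they sit on its right shoulder.

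In XEN both windows were well occupied in all 4 libraries. The Gata4 window had 575 and 502 CPM in the libraries labelled H3K4me1 and 582 and 517 CPM in those labelled H3K27ac. The Gata6 window had 204 and 177 CPM and 185 and 186 CPM. Bins with fewer than 4 counts are absent from the XEN files, and RA libraries treated the same way gave 394 CPM on H3K4me1 and 619 CPM on H3K27ac at Gata4 and 200.0 and 345 CPM at Gata6.

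The XEN replicates overlapped between the labels at both windows. Gata4 averaged 538 ± 51.2 CPM (SD, n = 2) in the libraries labelled H3K4me1 and 549 ± 46.4 CPM (n = 2) in those labelled H3K27ac (exact two-sided permutation test, p = 0.667, where 2 against 2 cannot go below 0.33). Gata6 averaged 190.4 ± 18.6 and 186 ± 0.468 CPM (exact permutation test, n = 2 each, p = 1).

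**Figure D2:**
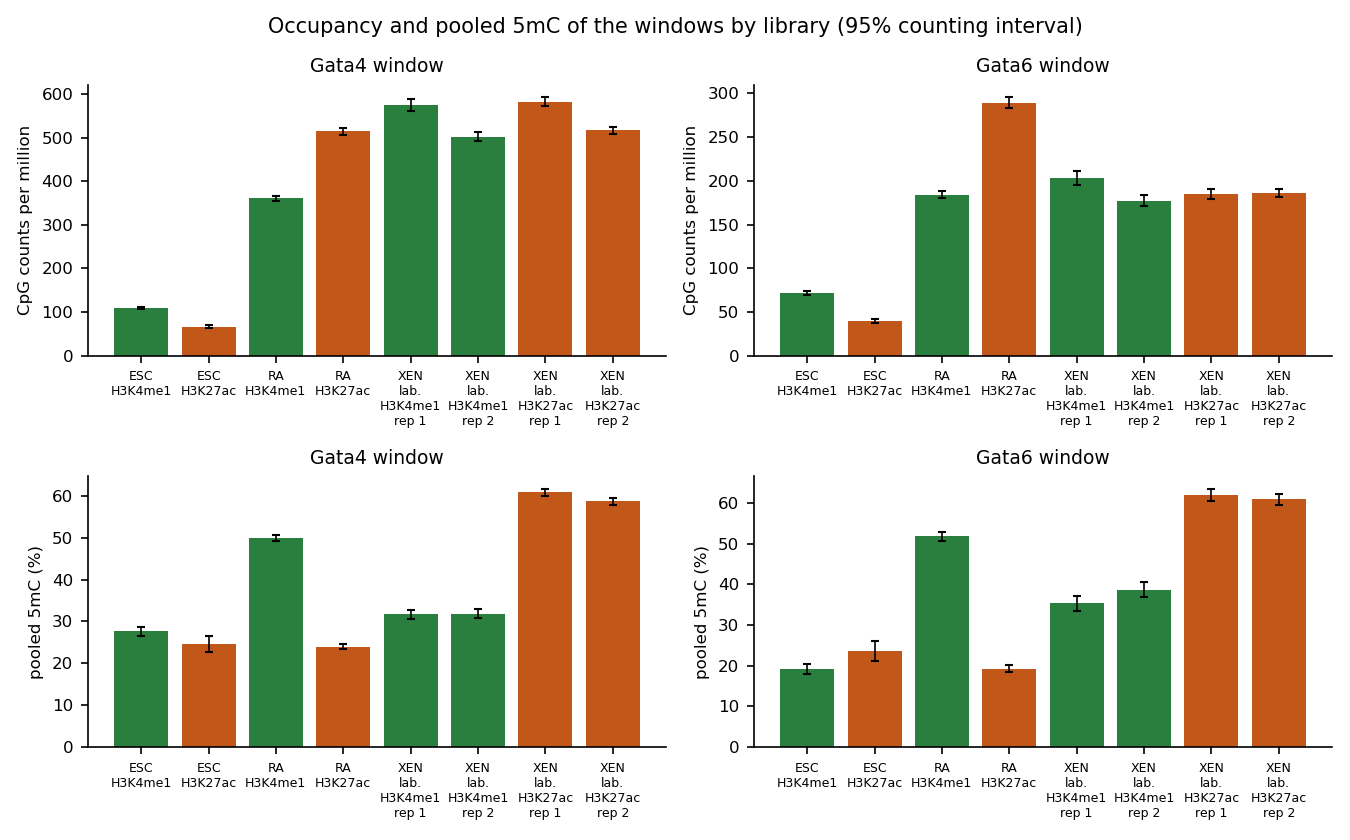
Occupancy in CPM (top) and pooled 5mC in percent (bottom) of the Gata4 and Gata6 windows, with 1 bar per library (green H3K4me1, orange H3K27ac, XEN by label) and 95% counting intervals. In RA the H3K27ac bar is the taller for occupancy and the shorter for 5mC, and in XEN the libraries labelled H3K27ac hold the higher 5mC, 58.7 to 62.0% against 31.7 to 38.6%.

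H3K27ac peaks covered far more of both windows in RA than in ESC, mostly through a few very long peaks. In ESC, H3K27ac peaks covered 9.50% of the Gata4 window with 6 peaks of at most 2.86 kb, and 8.96% of the Gata6 window with 5 peaks of at most 2.74 kb. In RA 6 peaks covered 86.5% and 8 covered 63.9%, the shortest of them again 1000 bp long. The longest RA H3K27ac peak at Gata4, chr14:63809513-63871288, ran over 61.8 kb with a HOMER score of 2732, where only 31 of 102581 RA H3K27ac peaks (0.0302%) were longer and 18 scored higher. It was followed by chr14:63871856-63892444 of 20.6 kb. At Gata6 the RA H3K27ac peak chr18:11045446-11091450 ran over 46.0 kb, and 65 peaks (0.0634%) were longer and 60 scored higher. The median RA H3K27ac peak was 1785 bp long.

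H3K4me1 peaks also lengthened, but left a gap. In ESC 15 peaks covered 38.5% of the Gata4 window and 10 covered 24.2% of the Gata6 window, and in RA 6 covered 87.6% and 9 covered 71.8%. The longest RA H3K4me1 peaks were chr14:63808571-63859409 (50.8 kb, with 47 of 158963 longer) and chr14:63864353-63894520 (30.2 kb) at Gata4 and chr18:11055390-11089955 (34.6 kb, with 142 longer) at Gata6. Between the pair at Gata4 lay a single peak of 2.95 kb with a score of 46.4. At Gata6 the RA H3K4me1 peak list held nothing between chr18:11052019 and chr18:11055390, a stretch inside the long H3K27ac peak and, in ESC, mostly inside the longest H3K4me1 peak of the window, chr18:11047488-11054491 (7.0 kb).

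Of the ESC peaks described next, all but 1 overlapped the long RA H3K27ac peaks. Other high-scoring ESC H3K4me1 peaks of Gata6 did not. These were chr18:11109562-11114510 (score 104.9), chr18:11095762-11098822 (62.0) and chr18:11038476-11041664 (60.7). At Gata4 the ESC H3K27ac peak with the highest score, 102.2, was chr14:63810909-63813769, and the longest ESC H3K4me1 peaks were chr14:63809465-63815179 and chr14:63862268-63868047. At Gata6 the ESC H3K27ac peaks at chr18:11053259-11054811 and chr18:11049864-11051635 overlapped the longest H3K4me1 peak, and the highest-scoring one (36.3) lay outside it and outside the long RA peak at chr18:11038817-11041555.

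Cut into tiles of 2 kb, the windows showed a broad gain of both marks and, within it, a few tiles where H3K4me1 was lower. A tile was called when CPM differed at least 2-fold and 1 of the libraries held at least 20 counts, with counts under 3 set to 3. On H3K4me1, 61 of 87 tiles were called higher in RA than in ESC, against 30.5% of all tiles of the genome, and 4 were called lower, against 35.1%. These were 34 of 50 higher and 1 lower at Gata4, and 27 of 37 higher and 3 lower at Gata6. On H3K27ac, 72 of 80 tiles were called higher (42 of 48 at Gata4, 30 of 32 at Gata6), against 19.6%, and 0 lower, against 24.8%. The median log2 ratio over the windows' tiles was 2.95 on H3K4me1 and 3.14 on H3K27ac, beside -0.18 and -0.13 over all tiles.

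Some tiles went from almost nothing to strong occupancy. On H3K4me1, chr14:63828001-63830000 held 5 counts in ESC and 260 in RA, a log2 ratio of 6.02, and chr18:11060001-11062000 held 13 and 427, a log2 ratio of 5.36. On H3K27ac, chr14:63860001-63862000 held 28 and 1097 counts, a log2 ratio of 5.30. The tile chr18:11062001-11064000 held 1 and 97 H3K27ac counts, too few in ESC for a ratio to be read, and the same holds for chr14:63824001-63826000 (2 and 146).

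Of the 4 tiles lower on H3K4me1, 3 were rich in H3K27ac in RA and lay in the cores of the loci, though none was the tile with the most H3K27ac of its window. In chr14:63862001-63864000 H3K4me1 was 7.52 CPM in ESC and 2.78 CPM in RA (log2 ratio -1.44), while H3K27ac was 2.82 and 56.4 CPM. In chr18:11052001-11054000 H3K4me1 was 9.49 and 2.59 CPM (-1.88) and H3K27ac 5.89 and 57.1 CPM. In chr18:11054001-11056000 H3K4me1 was 6.94 and 1.84 CPM (-1.91) and H3K27ac 9.12 and 44.9 CPM. The marks thus moved apart in these 3 tiles. In tiles of 5 kb none of 38 was lower on H3K4me1 by the same 2-fold rule, so no lower call was made at that scale. The other one, chr18:11098001-11100000, was sparse on both marks, with 45 and 14 H3K4me1 counts and 8 and 5 H3K27ac counts.

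**Figure D3:**
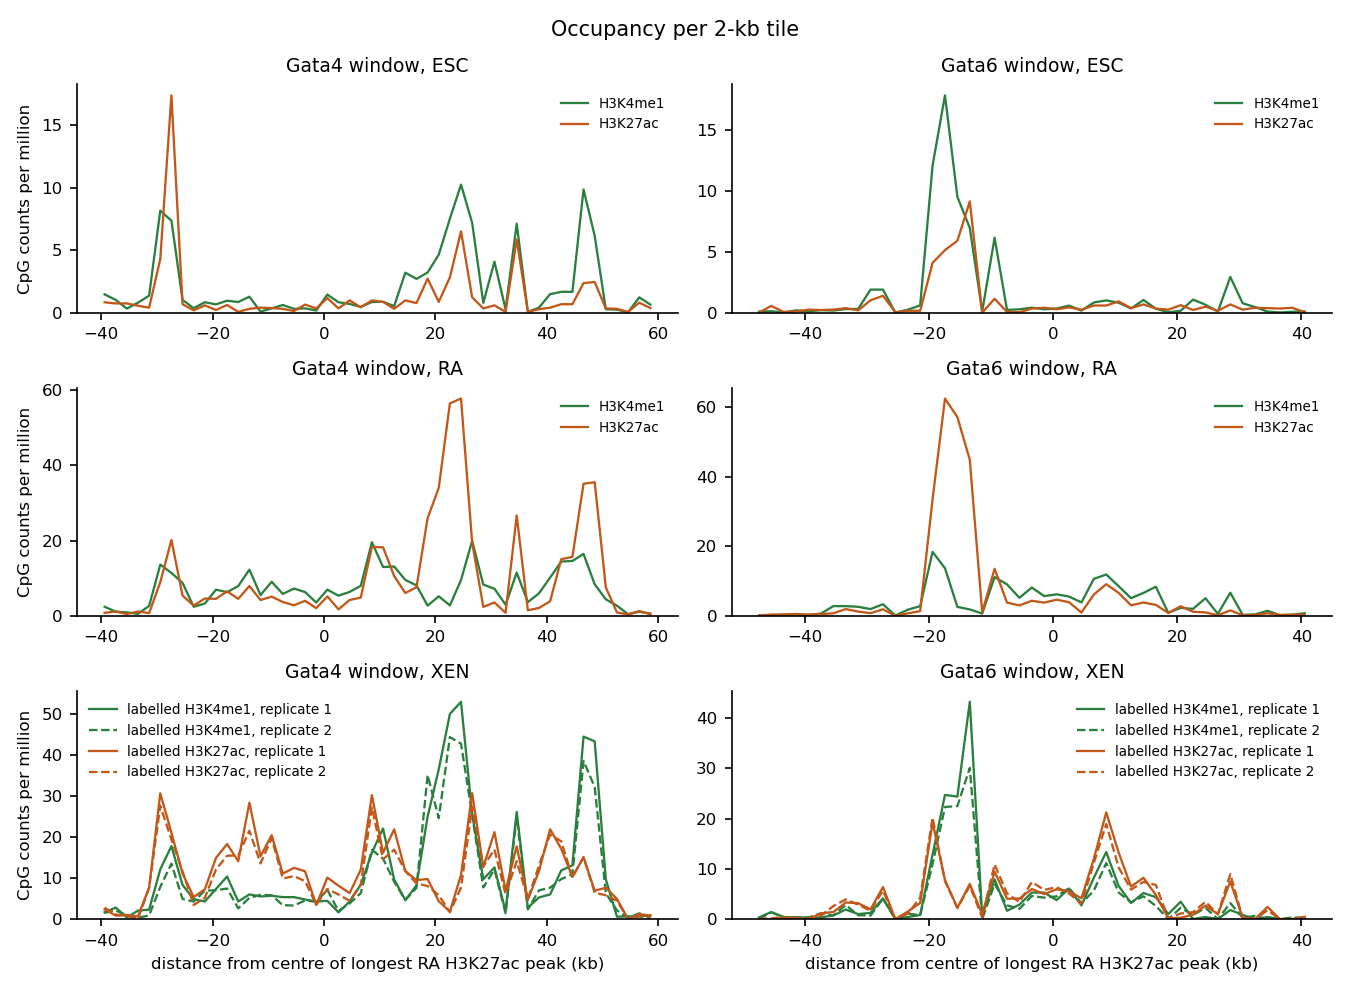
CPM of each 2-kb tile (vertical axes differ) against the distance in kb from the centre of the longest RA H3K27ac peak of the window, for H3K4me1 (green) and H3K27ac (orange) in ESC, RA and XEN, with XEN replicates 1 (solid) and 2 (dashed) by label. In RA the H3K27ac line stands highest, up to 57.7 CPM at Gata4 and 62.4 CPM at Gata6, within 4 kb of tiles where the H3K4me1 line falls to 2.78 CPM at Gata4 and 1.84 CPM at Gata6, and in XEN the libraries labelled H3K4me1 are high in the same region.

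Much of the H3K27ac of the windows lay in few tiles. The 5 highest tiles held 42.5% of the RA H3K27ac counts of the Gata4 window and 73.1% of those of the Gata6 window, beside 23.5% and 35.7% for the 5 highest RA H3K4me1 tiles. The highest RA H3K27ac tile was chr14:63864001-63866000 at Gata4, with 57.7 CPM, and chr18:11050001-11052000 at Gata6, with 62.4 CPM. The highest RA H3K4me1 tiles were the neighbours chr14:63866001-63868000 (19.9 CPM) and chr18:11048001-11050000 (18.4 CPM). In ESC the highest tiles were chr14:63864001-63866000 on H3K4me1 (10.3 CPM) and chr14:63812001-63814000 on H3K27ac (17.4 CPM) at Gata4, and chr18:11050001-11052000 (17.8 CPM) and chr18:11054001-11056000 (9.12 CPM) at Gata6. The tile with the most ESC H3K4me1 was therefore, at both genes, the tile with the most RA H3K27ac.

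Pooled over each window, 5mC of H3K4me1-bound DNA was higher in RA than in ESC at both genes, and that of H3K27ac-bound DNA differed by a few points. At Gata4, 5mC on H3K4me1 was 27.7% in ESC (26.6 to 28.8) and 50.0% in RA, 22.3 percentage points apart (21.0 to 23.6). At Gata6 it was 19.2% and 51.8%, 32.5 points apart (31.0 to 34.1). On H3K27ac it was 24.6% and 24% at Gata4, a difference of -0.627 points (-2.56 to 1.30), and 23.6% and 19.3% at Gata6, a difference of -4.26 points (-6.71 to -1.81).

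The H3K27ac difference changed sign with the bins counted. With only bins of at least 4 counts it was 5.51 points at Gata4 and 1.06 points at Gata6, and with only bins in peaks it was -0.167 and -2.23 points. The H3K4me1 difference was between 22.3 and 23.6 points at Gata4 and between 32.5 and 34.5 points at Gata6 under these choices. With each well-covered bin weighted equally the differences were 18 and 7.12 points on H3K4me1 and 11.4 and -1.02 points on H3K27ac, described further on.

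In ESC the marks were a few points apart in 5mC, with H3K4me1 3.06 points above H3K27ac at Gata4 and a difference of -4.33 points at Gata6, while in RA H3K4me1 lay 26.0 points above H3K27ac at Gata4 and 32.5 points at Gata6. In XEN the libraries labelled H3K4me1 had 31.7% and 31.9% 5mC at Gata4, and those labelled H3K27ac had 60.8% and 58.7%. At Gata6 these were 35.3% and 38.6%, and 62.0% and 60.9%. The labels did not overlap in either window, with mean differences of -28.0 points at Gata4 and -24.4 points at Gata6 (labelled H3K4me1 minus labelled H3K27ac, exact permutation test, n = 2 each, p = 0.33 for both, the smallest this design allows). With the marks as in the file names the same values put H3K4me1 above H3K27ac, as in RA. The depth of XEN libraries also differed by label, and 5mC over the genome was 47.9% and 49.2% in the libraries labelled H3K4me1 and 61.5% in each of those labelled H3K27ac.

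Pooled 5mC depends on where in the window the DNA came from, and this differed between ESC and RA. Bins in an ESC peak of either mark made up 42.0 kb of the Gata4 window and 24 kb of the Gata6 window, and bins in an RA peak and no ESC peak made up 50.8 and 47.0 kb. These RA-only bins held 11.6% of the ESC and 48.3% of the RA H3K4me1 counts at Gata4, and 8.12% and 51.3% at Gata6. On H3K27ac they held 16.7% and 27.9% at Gata4 and 16.1% and 19.1% at Gata6. Since these bins were picked for having a peak in RA and none in ESC, a larger share in RA is part of the choice, and the shares are a description.

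Within bins in an ESC peak, 5mC on H3K4me1 was 23.4% in ESC and 43.9% in RA at Gata4, and 14.8% and 35.2% at Gata6. On H3K27ac it was 16.4% and 16.2% at Gata4 and 12.0% and 7.61% at Gata6. In the RA-only bins 5mC was higher than in the ESC-peak bins of the same library, and it was lower in RA than in ESC on H3K27ac at Gata4. On H3K4me1 it was 56.2% and 56.1% at Gata4 and 59.6% and 66.7% at Gata6, and on H3K27ac 60.4% and 43.1% at Gata4 and 65.2% and 66.0% at Gata6. At Gata4 5mC on H3K4me1 thus differed in the bins already in peaks in ESC and hardly in the RA-only bins. At Gata6 it was higher in RA in both parts. The larger share of RA counts in RA-only bins also enters the pooled difference, but it is part of how these bins were picked.

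Bins with at least 30 counts give a view in which each bin weighs the same. On H3K4me1 in ESC, 41 of the 68 such bins at Gata4 and 33 of 41 at Gata6 were under 20% 5mC and 0 were over 80%. In RA 32 of 205 and 21 of 109 were under 20%, and 24 and 9 were over 80%. On H3K27ac, 12 of 13 and 9 of 9 bins were under 20% in ESC, and 66 of 133 and 44 of 59 in RA. The median bin on H3K4me1 was at 13.2% in ESC and 54.2% in RA at Gata4, and at 6.36% and 59.5% at Gata6.

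In the same bins, those in a peak with at least 30 counts in both libraries, mean 5mC on H3K4me1 was 22.1% in ESC and 40.2% in RA over 51 bins at Gata4, a difference of 18 points (SD over bins 20.7). Over 26 bins at Gata6 it was 14% and 21.1%, a difference of 7.12 points (SD 9.17). On H3K27ac it was 5.24% and 16.6% over 13 bins at Gata4, with a median difference of 3.47 points (SD 16.3). Over 9 bins at Gata6 it was 2.22% and 1.20% (SD of the difference 3.08). Counted this way the difference on H3K4me1 was larger at Gata4 than at Gata6, the opposite order to the pooled values, and no test compared the genes.

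Fisher's exact test per bin, with Benjamini-Hochberg adjustment over all bins of the genome, compared the libraries and not the cell states, and its p-values are too small where CpGs share a read. On H3K4me1, 31 of 77 bins were called higher in RA than in ESC, against 47.8% of all bins, and 3 were called lower, against 1.84%. Gata4 had 26 higher and 3 lower of 51 and Gata6 5 higher and 0 lower of 26. The median difference was 20.6 points at Gata4 and 5.17 points at Gata6, beside 17.4 points over all bins. The share of H3K4me1 bins called higher was thus under that of the genome at Gata6, the window whose pooled 5mC differed most.

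The largest differences clustered at 1 place in the Gata4 window, chr14:63810001-63814000. On H3K4me1 the bin chr14:63811801-63812000 had 12.4% 5mC in ESC and 72.2% in RA (Fisher's exact test, adjusted p = 2.3e-14). In chr14:63811201-63811400 it was 24.2% and 78.1% (Fisher's exact test, adjusted p = 1.11e-08), and in chr14:63811401-63811600 it was 32.6% and 82.4%. The stretch, chosen after its values were seen, held 13 of the 51 bins tested at Gata4 and 9 of the 26 called higher.

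Bins called lower in RA were fewer and stood apart from one another. In chr14:63883801-63884000 5mC on H3K4me1 was 48.5% in ESC and 2.33% in RA (Fisher's exact test, adjusted p = 7.66e-08). In chr14:63860601-63860800 it was 42.6% and 18%, and in chr14:63875201-63875400 it was 33.8% and 12.5%. At Gata6 the 5 called bins were all higher, by 11.4 to 27.1 points, with the largest change in chr18:11096801-11097000, from 25.0% to 52.1% (Fisher's exact test, adjusted p = 0.0431).

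On H3K27ac, 5 of 22 bins were called higher in RA than in ESC, against 13.8%, and 0 lower, against 1.06%. All 5 were neighbours, from chr14:63811801 to chr14:63812800. The first, chr14:63811801-63812000, had 11.1% in ESC and 66.7% in RA (Fisher's exact test, adjusted p = 2.1e-08), and chr14:63812401-63812600 had 0.926% and 18.8% (adjusted p = 1.76e-08, Fisher's exact test). At Gata6 0 of 9 bins were called. Both marks therefore gained 5mC at the same kilobase of the Gata4 window, which was the strongest H3K27ac peak of the window in ESC.

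The marks differed in 5mC in few single bins. In ESC 0 of 14 bins in peaks of both marks were called in either direction by Fisher's exact test, against 0.0692% with more 5mC on H3K4me1 and 0.00973% with less. In RA 12 of 145 bins were called with more 5mC on H3K4me1, against 0.799%, and 0 with less, against 0.0126%. These were 9 of 105 bins at Gata4 and 3 of 40 at Gata6. Mean 5mC over these bins was 40.1% on H3K4me1 and 33.3% on H3K27ac at Gata4 and 33.1% and 28.7% at Gata6, far closer than the pooled values.

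Of the 9 called bins of Gata4, 8 lay in chr14:63886001-63890000, which held 15 of the 105 bins tested. The bin chr14:63888801-63889000 had 66.1% 5mC on H3K4me1 (59 counts) and 14.3% on H3K27ac (91 counts) in RA (Fisher's exact test, adjusted p = 8.89e-07). In chr14:63889201-63889400 these were 64.3% and 22.5%, and in chr14:63886601-63886800 60% and 22.9%. At Gata6 the largest difference was in chr18:11049801-11050000, at 27.6% on H3K4me1 and 7.22% on H3K27ac (Fisher's exact test, adjusted p = 0.0372). In chr14:63886801-63887000 the gap was smaller in ratio, at 62.5% and 30.9%.

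**Figure D4:**
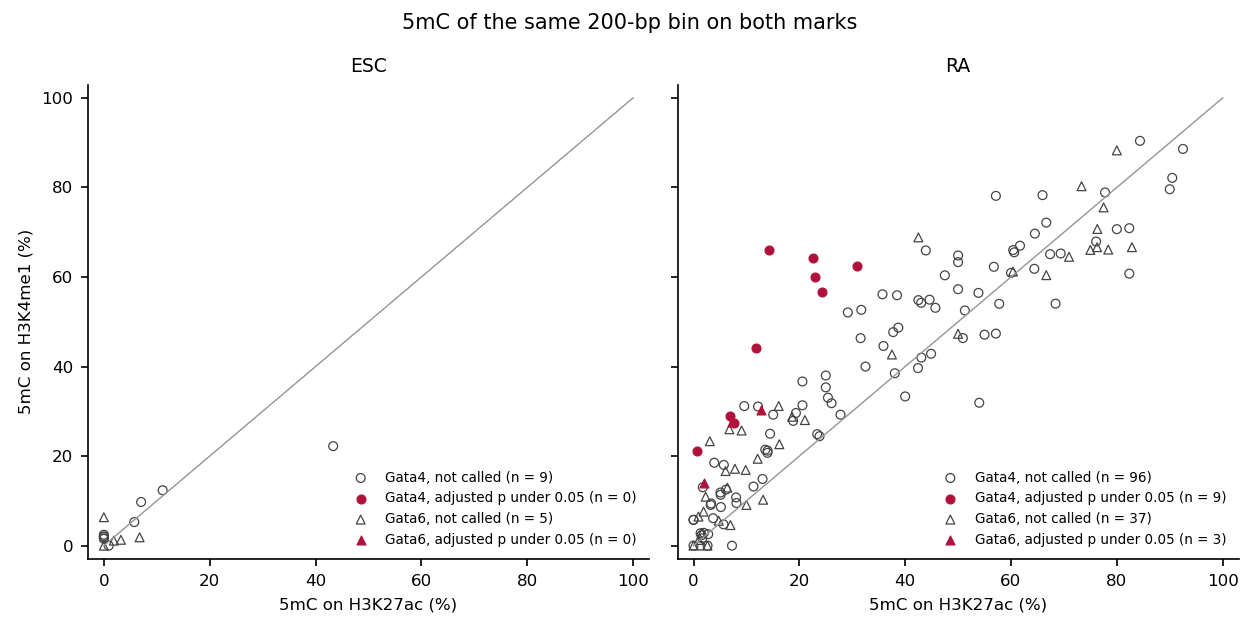
5mC on H3K4me1 against 5mC on H3K27ac, in percent, for each 200-bp bin in peaks of both marks with at least 30 counts on each (circles Gata4, triangles Gata6, red where adjusted p was under 0.05), in ESC (14 bins) and RA (145 bins), with the line of equal 5mC. In ESC nearly all bins sit near 0 on both marks, and in RA they spread along the line, with the 12 called bins above it.

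Counted in tiles of 2 kb with at least 30 counts on both marks, 5mC in RA was higher on H3K4me1 in 30 of 42 tiles at Gata4 (median difference 6.62 points) and in 19 of 27 at Gata6 (3.69 points). The 5 tiles with the most RA H3K27ac had 1.81 to 21.1% 5mC on that mark at Gata4 and 1.31 to 14% at Gata6.

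**Figure D5:**
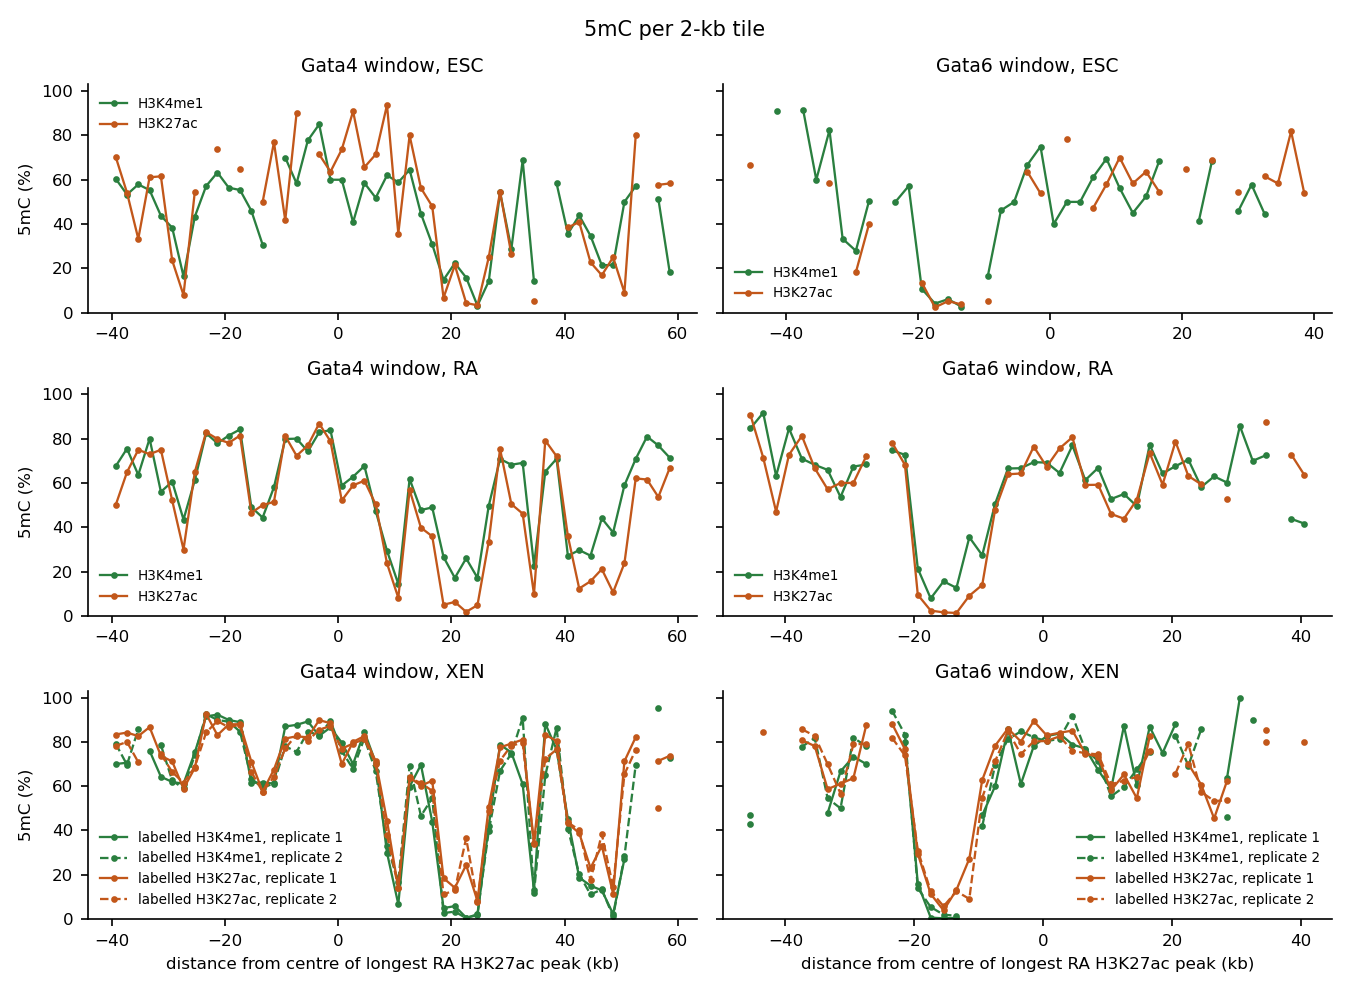
5mC in percent of each 2-kb tile with at least 10 counts, against the distance in kb from the centre of the longest RA H3K27ac peak, for H3K4me1 (green) and H3K27ac (orange) in ESC, RA and XEN (by label, replicate 1 solid, 2 dashed). Each window has troughs of low 5mC in a methylated surround, and in RA the H3K27ac line lies below the H3K4me1 line inside the deepest troughs, such as 1.81% against 26.0% in the tile chr14:63862001-63864000.

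Several stretches, chosen after their values were seen and so described without a test of their own, summarise the loci. The core of the Gata4 window, chr14:63858001-63866000, had 25.6 CPM of H3K4me1 and 12.9 CPM of H3K27ac in ESC and 20.2 and 174 CPM in RA. Its 5mC was 11.8% and 5.46% in ESC and 19.6% and 4.16% in RA. In XEN it had 164 and 147 CPM in the libraries labelled H3K4me1, with 2.81% and 2.00% 5mC, and 26.7 and 23.2 CPM in those labelled H3K27ac, with 14% and 12.4%. Between ESC and RA, 2 of 6 bins on H3K4me1 were called higher, chr14:63865201-63865400 (5.41% and 27.5%) and chr14:63865401-63865600 (4.11% and 29.6%), and 1 lower, and 0 of 4 on H3K27ac were called, against 47.8% higher and 1.84% lower of all bins on H3K4me1 and 13.8% and 1.06% on H3K27ac. Pooled over the stretch, 5mC was under 20% in every library, though the interval on RA H3K4me1 was 17.2 to 22.3%. Single tiles were higher, such as chr14:63862001-63864000 with 26.0% on RA H3K4me1. The XEN libraries labelled H3K27ac had 24.4% and 36.5% in that tile, from 41 and 52 counts. Occupancy of the core by the marks differed between the states.

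The core of the Gata6 window, chr18:11050001-11056000, showed similar differences in occupancy. It had 34.2 CPM of H3K4me1 and 20.1 CPM of H3K27ac in ESC and 18.1 and 164 CPM in RA, and its 5mC was 4.37% and 3.81% in ESC and 9.47% and 1.81% in RA. In XEN it had 92.3 and 74.9 CPM in the libraries labelled H3K4me1, with 0.535% and 2.81% 5mC, and 17 and 16.4 CPM in those labelled H3K27ac, with 11.1% and 11.7%. Here 0 of 11 bins on H3K4me1 and 0 of 9 on H3K27ac were called between ESC and RA, beside the same shares of all bins, and so few bins allow no reading.

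At the other end of the Gata4 window, chr14:63810001-63814000 had more 5mC in RA than in ESC and most in XEN. It had 27.9% on H3K4me1 and 11% on H3K27ac in ESC, 52.8% and 36.7% in RA, and 60.3 to 66.2% in the 4 XEN libraries. Its occupancy was 15.5 and 21.7 CPM in ESC and 25.0 and 29.1 CPM in RA, and 21.3 to 51.7 CPM in XEN. The stretch was thus also marked in RA and XEN, with over 50% 5mC on RA H3K4me1 and in all 4 XEN libraries but not on RA H3K27ac.

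The stretch chr14:63848001-63852000 ran the other way. It lay in no ESC peak and had 1.72 CPM of H3K4me1 and 1.84 CPM of H3K27ac in ESC, with 60.4% and 66.7% 5mC (interval 53.3 to 78.3, from 60 counts). In RA it had 32.5 and 36.5 CPM with 23.4% and 15.9% 5mC, and in XEN 31.6 to 46.4 CPM with 16.6 to 33.7%. No bin there had the 30 ESC counts needed for a test of ESC against RA.

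The stretch chr14:63886001-63890000 held most of the Gata4 bins called between the marks in RA. Its 5mC was 21.4% on H3K4me1 and 21.0% on H3K27ac in ESC and 41.8% and 15.8% in RA. The XEN libraries labelled H3K4me1 had 7.69% and 7.84% and those labelled H3K27ac 26.3% and 31.3%. Elsewhere 5mC was uneven. Low values on RA H3K4me1 were also found in chr14:63874001-63876000 (22.7%), in the 3 tiles of chr14:63880001-63886000 (27.1 to 29.7%), in chr18:11058001-11060000 (27.4%) and in chr18:11048001-11050000 (21.3%), which held more H3K4me1 in RA than any other tile of the Gata6 window, 18.4 CPM. The longest stretches between such tiles were mostly methylated. In chr14:63816001-63848000, H3K4me1 was 10.2 CPM in ESC and 103.3 CPM in RA with 54.2% and 66.9% 5mC, and in chr18:11060001-11086000 it was 6.62 and 94.8 CPM with 57.6% and 63.0%. In XEN 5mC was 75.8 to 80.9% in the former and 73.0 to 74.5% in the latter.

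Only 6 bins of the windows had at least 30 counts in every state and mark. The 3 with the lowest RA 5mC on H3K4me1 were chr14:63875001-63875200 (0%, 0 of 129 counts, with an interval up to 2.82%), chr18:11050601-11050800 (2.78%) and chr18:11050801-11051000 (6.49%), and the XEN libraries summed per label had 0 to 15.5% there. The 3 with the highest were chr14:63812401-63812600 (27.9%), chr14:63812201-63812400 (31.8%) and chr14:63813201-63813400 (42.0%), and XEN had 47.8 to 72.7% there. The low bins were at most 15.5% in every state and mark, and the high ones were at 0 to 43.3% in ESC.

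Within XEN, edgeR's quasi-likelihood test compared the marks by label over 2 replicates each. Of 83 tiles, 11 had more counts in the libraries labelled H3K4me1, against 14.9% of all tiles, and 18 had fewer, against 12.1%, at an adjusted p under 0.05. Gata4 had 8 higher and 14 lower of 49 tiles and Gata6 3 higher and 4 lower of 34. The replicate numbers were not shown to pair the libraries.

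Of the 11 tiles higher under the H3K4me1 label, 7 made up the cores chr14:63858001-63866000 and chr18:11050001-11056000, and 4 lay elsewhere in the Gata4 window. In chr14:63862001-63864000 the libraries labelled H3K4me1 held 607 and 696 counts and those labelled H3K27ac 41 and 52, a log2 fold of 5.10 (SE 0.19, edgeR adjusted p = 0.00117). In chr18:11052001-11054000 these were 296 and 353 against 51 and 69 counts, a log2 fold of 3.73 (SE 0.17, edgeR adjusted p = 0.00117). The neighbours chr14:63860001-63862000, chr14:63864001-63866000 and chr18:11054001-11056000 had log2 folds of 2.90, 2.71 and 2.75. Outside the cores, chr14:63888001-63890000 had a log2 fold of 2.83, chr14:63886001-63888000 of 1.79, chr14:63802001-63804000 of 1.64 and chr14:63874001-63876000 of 1.01. The 3 tiles with more H3K27ac and less H3K4me1 in RA than in ESC were among the 7.

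The tiles lower under that label lay outside the cores. In chr14:63826001-63828000 the counts were 73 and 81 against 645 and 675, a log2 fold of -1.83 (SE 0.22, edgeR adjusted p = 0.00817), and in chr18:11046001-11048000 they were 10 and 12 against 73 and 134, a log2 fold of -1.90 (SE 0.38, edgeR adjusted p = 0.0213). The tile chr18:11094001-11096000 was listed at 0 in both libraries labelled H3K4me1 and held 22 and 30 counts in the others. Leaving out either library labelled H3K27ac left 11 tiles lower, and scaling by library totals in place of TMM gave 10 higher and 27 lower.

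For 5mC within XEN, edgeR called 0 of 167 bins with more 5mC under the H3K4me1 label, against 0.00568%, and 4 with less, against 0.215%. In chr14:63874601-63874800 both libraries labelled H3K4me1 had 0% and those labelled H3K27ac 12.5% and 8.16% (edgeR adjusted p = 0.0147). In chr18:11050601-11050800 the values were 0% and 0% against 21.7% and 11.4% (edgeR adjusted p = 0.036). The others were chr14:63887601-63887800, at 1.95% against 14.2% summed per label, and chr14:63886801-63887000, at 18.7% against 42.5%. Fisher's exact test on summed counts called 11 bins lower. At an unadjusted edgeR p under 0.05, 2 bins had more 5mC under the H3K4me1 label and 32 less, beside 1.18% and 6.83% of all 105672 bins, whose median difference was -2.44 points. Leaving out 1 library at a time in the same edgeR fit, 2 bins were called lower without replicate 1 labelled H3K4me1 and 0 without any 1 of the other libraries. The median difference over the bins tested was -8.62 to -3.44 points in these fits and -5.67 points with all 4 libraries. At an unadjusted edgeR p under 0.05, these 4 fits gave 11 to 18 bins lower and 0 higher, of 61 to 137 tested, beside 3.34 to 8.75% and 0.554 to 1.21% of all bins.

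XEN and RA were compared with 1 RA library per mark, over bins with at least 4 counts in each library, and a tile was called only when both XEN replicates passed 2-fold. XEN libraries are labelled as paired-end while the methods of the study describe single-end alignment, and this cannot be told apart from the cell state. By label, 10 of 85 tiles were higher on H3K4me1, against 13.9%, and 15 lower, against 33.2%. On H3K27ac 29 of 82 were higher, against 34.4%, and 12 lower, against 18.9%. With the marks as in the file names, 6 of 84 were higher on H3K4me1, against 8.01%, and 2 lower, against 25.1%, and on H3K27ac 6 of 77 were higher, against 14.1%, and 4 lower, against 10.9%. The correlations with RA over the same tiles prompted this reading, so the lower counts are no separate evidence for it. By label the median log2 ratio over the windows' tiles was -0.57 on H3K4me1 and 0.62 on H3K27ac, beside -0.80 and 0.60 over all tiles. With that median set to 0, the labels gave 16 tiles higher and 4 lower on H3K4me1 and 10 higher and 16 lower on H3K27ac. Without XEN replicate 1, 23 tiles were lower on H3K4me1 by label.

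By label the core tiles differed widely and by file name far less. By label the tile chr14:63862001-63864000 had a log2 ratio of XEN over RA of 4.01 on H3K4me1 and -5.30 on H3K27ac, and chr18:11052001-11054000 had 3.05 and -4.96. With the marks as in the file names these log2 ratios were -0.76 and -0.54, and -0.35 and -1.56. With the marks as in the file names no tile of the Gata4 window was called lower on either mark, at 0 of 49 and 0 of 47. All 4 tiles lower on H3K27ac were then in the Gata6 window, at chr18:11048001-11050000 (log2 ratio -1.77), chr18:11050001-11052000 (-1.69), chr18:11052001-11054000 (-1.56) and chr18:11058001-11060000 (-1.14). The median log2 ratio over the windows' tiles was then 0.16 on H3K4me1 and -0.15 on H3K27ac, beside -0.43 and 0.10 over all tiles.

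In 5mC per bin, by label and with Fisher's exact test on XEN counts summed over replicates, 7 of 152 bins were called higher in XEN than in RA on H3K4me1, against 4.73%, and 18 lower, against 1.81%. On H3K27ac 42 of 157 were called higher, against 27.6%, and 2 lower, against 0.326%. With the marks as in the file names, 47 of 296 were higher on H3K4me1, against 13.5%, and 6 lower, against 0.556%, and 6 of 155 were higher on H3K27ac, against 5%, and 5 lower, against 0.363%. All bins called lower on H3K4me1 lay at Gata4 under either reading of the marks. By label, 13 of the 18 were in chr14:63886001-63890000, which held 15 of the 110 bins tested at Gata4. Without XEN replicate 1 the labels gave 2 bins higher and 11 lower on H3K4me1, and without replicate 2 they gave 2 higher on H3K4me1 and 0 lower on H3K27ac by Fisher's exact test.

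Some bins were called in the same direction on a mark whichever reading was used. On H3K4me1 these were 7 higher in XEN (of 7 by label and 47 by file name) and 4 lower (of 18 and 6), and on H3K27ac 6 higher (of 42 and 6) and 0 lower (of 2 and 5). Both readings share the RA library. No share of all bins was computed for calls under both readings, so these counts are a description. In chr14:63812401-63812600, RA had 27.9% on H3K4me1 and 18.8% on H3K27ac, and XEN 59.7% under the H3K4me1 label and 61.4% under the H3K27ac label. In chr18:11059001-11059200 RA H3K27ac had 6.40% 5mC, and the XEN libraries labelled H3K27ac had 58.7% (Fisher's exact test, adjusted p = 1.08e-16) and those labelled H3K4me1 35.7% (Fisher's exact test, adjusted p = 0.000256). In its neighbour chr18:11059201-11059400 RA H3K27ac had 12.1%, and XEN had 56.1% and 72.7%. In chr14:63888801-63889000 RA H3K4me1 had 66.1%, and XEN had 2.44% under the H3K4me1 label (Fisher's exact test, adjusted p = 1.26e-13) and 27.3% under the H3K27ac label (Fisher's exact test, adjusted p = 0.00752). The other bins lower on H3K4me1 were chr14:63889201-63889400 and chr14:63886801-63887000 beside it and chr14:63865201-63865400 in the core of Gata4, where RA had 27.5% and XEN 3.92% and 10.2%. The other bins higher on H3K4me1 were spread over both windows, such as chr14:63870401-63870600 with 31.9% in RA and 72.5% and 71.1% in XEN and chr18:11079601-11079800 with 66.7% in RA and 92.5% and 84.8% in XEN.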

How the data were processed

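Bismark and Bowtie were used by the authors for single-end alignment, reads whose CpGs disagreed were discarded, and the deposited values are unnormalized counts of CpGs, methylated or not, in each 200-bp bin. Peaks were called by the authors with HOMER, with local and clonal filters off, and the deposited score of each peak was used as given. The submitters' processing notes name mm9, and chromosome 1 reaches base 197192400. Whether the authors pooled repeats is not given in the sources used here. The XEN files list bins with at least 4 counts and have the count columns in the opposite order. The windows, stretches and comparisons were chosen with earlier results of these data known.

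From the counts, CPM and 5mC were computed over chromosomes 1 to 19 and X. Bins for 5mC tests needed at least 30 counts in each library, with XEN counts summed over the replicates of a label. They also needed at least 1 bp of overlap with a peak (none for XEN). ESC, RA and XEN against RA were compared by Fisher's exact test, adjusted by Benjamini-Hochberg over the genome (threshold 0.05). The marks in XEN were compared by edgeR's quasi-likelihood test. For tiles it used TMM and filterByExpr, and for 5mC neither, with library sizes taken from the summed counts of the tested bins. Named bins and tiles are the highest tile of each library, up to 5 called ones per comparison, window and direction, and the extreme bins covered in every library. On simulated data 109, 184, 150 and 165 of 200 bins changed by 40 points were called (RA against ESC on H3K4me1 and on H3K27ac, over 204680 and 81110 bins, and the marks in ESC and in RA, over 92463 and 95400 bins). For the marks in XEN, edgeR called 33 of 100 tiles changed 2-fold and 100 of 100 changed 4-fold over 330565 tiles, and 160 of 200 bins changed by 40 points over 105672 bins. Those simulated bins had the same 5mC rate in the replicates of a label and independent CpGs. They therefore leave out variation between replicates and CpGs that share a read. Depth was 12143514 to 58791727 counts per library. Alternatives were other tile sizes, filters, scalings and coverage minimums, DESeq2, leaving out replicates, a replicate block and the XEN marks of the file names. The single-cell tables, for which no key from transcript to gene was at hand, and the input and H3K36me samples were not used here. Tools were Python 3.11.15, numpy 2.4.6, pandas 2.3.3, scipy 1.17.1, numba 0.67.0, matplotlib 3.10.9, R 4.3.3, edgeR 4.0.16 and DESeq2 1.42.0.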

Additional observations from a re-analysis of the deposited data

Results flagged for a closer look

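The difference in pooled 5mC between the marks had opposite signs in RA and XEN when the XEN labels were followed. At Gata4, H3K4me1 minus H3K27ac was 26.0 points in RA and -28.0 points in XEN, and at Gata6 it was 32.5 points in RA and -24.4 points in XEN. The XEN sign turns with the marks as in the file names. At Gata6 the difference was -4.33 points in ESC and 32.5 points in RA. RA minus ESC was also of opposite sign on the marks, at 22.3 points on H3K4me1 and -0.627 points on H3K27ac at Gata4 and at 32.5 and -4.26 points at Gata6. The interval of the H3K27ac difference at Gata4 includes 0, and both H3K27ac differences were above 0 when only bins with at least 4 counts were kept. These differences between groups were not tested, since ESC and RA had 1 library per mark.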

How the results depend on the processing

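Of 160 alternative values for 34 results, 97 stayed the same, 62 moved and 1 was reversed, where a count was held to be the same within 1.5 times, and a window value within its 95% interval or, in XEN, 1 SD between replicates. Tiles of 5 kb, of which there are fewer, gave 29 higher tiles in RA than ESC on each mark, 0 lower in RA than ESC on H3K4me1, 4 lower on H3K4me1 and 9 higher on H3K27ac in XEN against RA, and 10 lower between the XEN labels, where keeping low tiles gave 32. Setting the median ratio to 1 gave 4 lower on H3K4me1 and 10 higher on H3K27ac in XEN against RA, and the marks of the file names gave 2 and 6 tiles. In bins, those marks gave 6 lower on H3K4me1 and 6 higher on H3K27ac. A minimum of 60 counts gave 16 and 2 bins higher in RA than ESC on H3K4me1 and H3K27ac, and 25 higher in XEN than RA on H3K27ac. Requiring over 20 points gave 3 and 24 for H3K27ac. Fisher's exact test on summed counts gave 11 bins lower between the XEN labels, and on single libraries, with fewer bins tested, 2 without replicate 1 of both labels and 0 without replicate 2.

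Only bins with at least 4 counts gave RA over ESC ratios of 3.54 and 9.11 at Gata4 and 2.75 and 8.46 at Gata6 on H3K4me1 and H3K27ac, and 5mC differences of 5.51 points on H3K27ac at Gata4, 34.5 points on H3K4me1 at Gata6 and, reversed, 1.06 points on H3K27ac at Gata6. Equal weight per bin, added after seeing the data, gave 18 and 11.4 points at Gata4 and 7.12 and -1.02 points at Gata6. The causes of these shifts were not tested.

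Leaving out XEN replicates gave 18 to 23 tiles lower on H3K4me1 and 29 to 34 higher on H3K27ac against RA, 11 to 13 bins lower on H3K4me1 and 29 to 32 higher on H3K27ac, 11 to 21 tiles and, in edgeR fits added after seeing the data, 0 to 2 bins lower between the labels, and differences of -29.2 to -26.8 points at Gata4 and -26.7 to -22.2 points at Gata6. In the edgeR fits between the labels a lone library was assumed to vary like the other group.

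With the replicate number as a block, edgeR called 10 tiles higher and 12 lower and 2 bins lower between the XEN labels. The deviations of same-numbered libraries had r = -2e-04 over 330565 tiles, and the replicate block pairs libraries that share only a number. Low counts in the windows limit the ESC bins, of which 22 could be tested on H3K27ac at a library total close to that of RA.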
